A study of Mus musculus with 45 samples.

Results

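Mitosis is run by a set of genes that are transcribed together late in the cell cycle, and the level of 48 of them was examined here in T and B lymphocytes sorted from draining lymph nodes (dLN) of immunized mice. The 48 genes were taken by symbol from the count table of 55450 genes: kinases and cyclins of G2 and M phase, the spindle checkpoint, the kinetochore, the chromosomal passenger complex, the mitotic spindle, cytokinesis and chromosome structure. All 48 symbols were found in the table. The mice lacked S1PR4 (S1pr4-/-, KO), a G protein-coupled receptor for the lipid sphingosine-1-phosphate, or were wild-type (WT) littermates. The allele is a deletion carried by every cell of the mouse (strain B6.129P2-S1pr4tm1Dgen/J, crossed back to C57BL/6 for at least 10 generations), so an effect within the sorted cells and one from their surroundings cannot be told apart. Male and female mice aged 8 to 12 weeks, of both genotypes, received 50 µg ovalbumin and 5 µg lipopolysaccharide in 20 µL of Freund's incomplete adjuvant in the hind footpad. T follicular helper cells (Tfh; PD1+CXCR5+ CD4 T cells) and non-Tfh CD4 T cells (PD1-CXCR5-) were sorted from the popliteal node on day 6. Germinal center B cells (GC B; B220+GL7+Fas+) and non-GC B cells (GL7-Fas-) were sorted on day 9. RNA was sequenced from 45 samples, 6 in each of the 8 groups except for non-GC B cells, with 5 WT and 4 KO samples. The labels number the replicates without naming the mouse, so the p-values below measure the spread between these samples.

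Libraries held between 26299429 and 45548215 counts. S1pr4 had from 505 to 6305 counts in WT libraries and from 0 to 40 in KO libraries, so every library matched its genotype label. The sorted populations carried their defining markers: 12 B cell markers summed to between 8189 and 12823 CPM (counts scaled to library size) in GC B libraries, and 12 T cell markers to between 8053 and 11119 CPM in Tfh libraries. B cell markers were not absent from the Tfh libraries, where they summed to between 199.9 and 536 CPM in WT and between 183 and 323 CPM in KO. Libraries that stood apart were a GC B KO library (replicate 3) with 19069 CPM of plasma cell markers, against 2770 to 9443 CPM in the other KO libraries, and a Tfh KO library (replicate 6) with 532 CPM of myeloid markers, against 67.0 to 136 CPM.

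The proteins encoded by these genes act in order. Cyclin-dependent kinase 1 with a B-type cyclin starts mitosis, the kinetochore joins each chromosome to spindle microtubules, and the spindle checkpoint holds the anaphase promoting complex inactive until all chromosomes are attached. That complex then destroys securin and the cyclins, sister chromatids part, and the cell divides. In a lymph node, dividing lymphocytes are known to gather among antigen-activated T cells and in the dark zone of the germinal center, while naive lymphocytes rest outside the cell cycle. In sorted bulk samples, a larger share of dividing cells and more RNA per dividing cell cannot be told apart.

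Late cell cycle genes are known to be bound at their promoters by the DREAM and MuvB complexes, through the cell cycle gene homology region (CHR), and by NF-Y, through CCAAT boxes. Promoter sequences reaching from 250 bases before to 50 bases after the transcription start were available for 39 of the 48 genes, as 41 promoters (RefSeq, build GRCm38.p6). A CHR, searched as TTTGAA or TTCGAA on both strands, was present in 33 of these 41 promoters (80.5%) and in 19.2% of all 32851 mouse promoters of the same length. CCAAT, on both strands, was present in 30 of the 41 (73.2%) against 37.4% of all promoters, and both motifs together in 28 of the 41 (68.3%) against 7.52%. At least 2 CCAAT matches were found in 48.8% of the members' promoters and in 11.7% of all. These matches are letters in a window, not measured binding sites. The last 25 bases of 38 of the 41 promoters were found in an annotated transcript of the same gene, and none on the opposite strand. Aurkb, Ccna2, Cdc25c, Foxm1, Incenp, Kif20a, Spc24, Stmn1 and Tpx2 had no entry.

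The promoters of 6 genes are printed below, chosen because their genes span the range of responses described further on; capitals mark CHR and CCAAT matches on either strand. Plk1, Cdc20, Ube2c and Top2a hold both motifs, and their levels differed strongly between the populations. Ccnb1 holds CCAAT and no CHR of these letters. Pttg1 holds neither in its window and was the 1 member not called in the comparison of populations within either lineage of WT mice. Upstream, that window reaches base 43426231, while the gene annotated in GENCODE M21 begins at 43426251 on the minus strand. The whole Pttg1 window thus lies inside the annotated gene, and sequence before that start was not searched. Counting the first transcribed base as 1, the CHR starts at base 31 in Plk1, -18 in Cdc20, -29 in Ube2c and -23 in Top2a, and Top2a has 3 more, at -120, -140 and -179. The 2 CCAAT matches that begin at -186 and -183 in Ube2c overlap, on opposite strands.
Plk1 (chr7:122159185-122159484, plus strand): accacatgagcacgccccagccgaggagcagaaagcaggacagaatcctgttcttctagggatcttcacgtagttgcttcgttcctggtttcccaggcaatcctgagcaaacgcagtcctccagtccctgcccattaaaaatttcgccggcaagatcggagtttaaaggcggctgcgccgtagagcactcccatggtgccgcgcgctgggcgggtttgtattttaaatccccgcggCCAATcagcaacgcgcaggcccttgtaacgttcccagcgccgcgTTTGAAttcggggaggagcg
Cdc20 (chr4:118437294-118437593, minus strand): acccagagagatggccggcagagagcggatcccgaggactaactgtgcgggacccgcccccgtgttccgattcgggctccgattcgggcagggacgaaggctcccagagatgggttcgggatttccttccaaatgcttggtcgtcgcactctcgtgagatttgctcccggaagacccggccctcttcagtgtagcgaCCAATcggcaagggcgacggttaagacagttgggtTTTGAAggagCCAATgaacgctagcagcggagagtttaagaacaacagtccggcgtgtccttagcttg
Ube2c (chr2:164769679-164769978, plus strand): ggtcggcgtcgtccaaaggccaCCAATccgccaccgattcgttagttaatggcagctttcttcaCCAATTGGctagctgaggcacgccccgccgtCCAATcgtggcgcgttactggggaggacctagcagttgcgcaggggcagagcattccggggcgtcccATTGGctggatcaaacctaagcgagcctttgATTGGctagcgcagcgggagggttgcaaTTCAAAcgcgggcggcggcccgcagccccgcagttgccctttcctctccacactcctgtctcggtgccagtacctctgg
Top2a (chr11:99024140-99024439, minus strand): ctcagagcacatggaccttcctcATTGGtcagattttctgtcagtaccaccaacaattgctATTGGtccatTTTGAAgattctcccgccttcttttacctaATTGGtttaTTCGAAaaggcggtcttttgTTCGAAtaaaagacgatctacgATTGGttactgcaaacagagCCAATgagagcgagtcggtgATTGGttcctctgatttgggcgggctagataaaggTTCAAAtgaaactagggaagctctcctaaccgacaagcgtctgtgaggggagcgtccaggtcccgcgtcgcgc
Ccnb1 (chr13:100786437-100786736, minus strand): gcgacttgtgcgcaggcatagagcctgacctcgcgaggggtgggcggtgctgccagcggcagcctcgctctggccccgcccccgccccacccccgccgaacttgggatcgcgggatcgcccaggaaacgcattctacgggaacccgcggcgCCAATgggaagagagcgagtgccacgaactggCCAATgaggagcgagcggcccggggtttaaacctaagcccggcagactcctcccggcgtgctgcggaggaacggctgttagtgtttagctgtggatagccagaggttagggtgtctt
Pttg1 (chr11:43425932-43426231, minus strand): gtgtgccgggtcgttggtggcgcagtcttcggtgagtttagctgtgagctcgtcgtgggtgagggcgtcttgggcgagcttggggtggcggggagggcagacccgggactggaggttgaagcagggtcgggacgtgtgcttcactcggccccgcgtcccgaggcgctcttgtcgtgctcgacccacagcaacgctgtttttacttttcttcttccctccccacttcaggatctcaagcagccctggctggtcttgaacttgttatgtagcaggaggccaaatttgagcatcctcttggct
Birc5, Mad2l1, Melk, Nuf2 and Nusap1 also had neither motif in this window, and all 5 differed between the populations, so the motif count did not separate Pttg1 from the other members.

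As a group, the mitosis genes separated the 4 populations by a wide margin. The mean log2 CPM of the 48 genes (with a prior count of 2) lay between 6.75 and 7.22 in Tfh WT, with a median of 6.91, and between 7.05 and 7.48 in Tfh KO, with a median of 7.29. In non-Tfh cells it lay between 2.25 and 3.99 in WT (median 2.84) and between 2.62 and 4.41 in KO (median 3.04). GC B cells lay in a similar range, with 6.59 to 7.60 in WT (median 7.24) and 7.15 to 7.55 in KO (median 7.33). Non-GC B cells were lowest, with 1.04 to 1.89 in WT (median 1.43) and 1.10 to 1.65 in KO (median 1.34). No library of a Tfh or GC B group came near any library of a non-Tfh or non-GC B group, while WT and KO overlapped in each of the 4 populations. In share of the library, the 48 genes took a median of 7021 CPM in Tfh WT, 9103 CPM in Tfh KO, 8998 CPM in GC B WT and 9564 CPM in GC B KO, against 615 and 631 CPM in non-Tfh and 390 and 413 CPM in non-GC B cells, WT and KO.

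**Figure D1:**
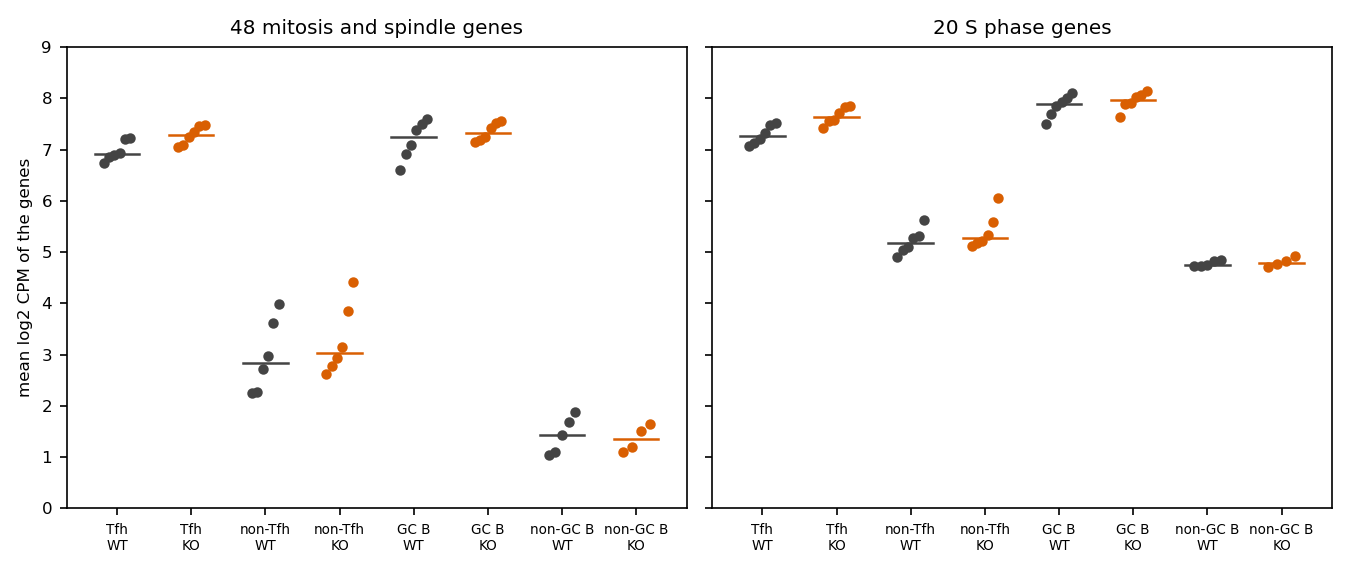
Mean log2 CPM of the 48 mitosis and spindle genes (left) and of 20 S phase genes (right) in each library (points; horizontal bars, group medians; gray, WT; orange, KO). Medians of the mitosis genes run from 1.34 in non-GC B KO to 7.33 in GC B KO, and the S phase genes span a narrower range.

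The 20 S phase genes, another list of cell cycle genes, did not reach such low levels. Their mean log2 CPM had a median of 5.18 in non-Tfh WT and 4.76 in non-GC B WT, so that the mitosis genes lay 2.31 and 3.40 log2 units lower there but only 0.29 lower in Tfh WT and 0.69 lower in GC B WT.

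The first comparison asked how far Tfh cells differed from non-Tfh CD4 T cells in WT mice. Of the 48 members, 47 were higher in Tfh cells by more than 1.5-fold at an adjusted p below 0.05 (edgeR quasi-likelihood test with Benjamini-Hochberg adjustment, largest adjusted p 2.1e-05), against 22.8% of the 13481 genes tested. The median log2 fold change of the members was 4.15, or 17.7-fold, and that of all tested genes 0.00. In B cells, where GC B were set against non-GC B cells, 47 members were again higher (largest adjusted p 1.4e-06), against 24.8% of 13324 genes, with a median of 5.95, or 61.8-fold. In each comparison the 47 genes did not overlap between the groups, every library of the Tfh or GC B group lying above every library of the other, against 25.5% and 25.4% of all tested genes. The member that did not pass was Pttg1 both times.

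Among the kinases and cyclins that start mitosis, all 11 passed in both lineages. Cdk1, the kinase that drives entry, ran from 109 to 157 (median 127) CPM in Tfh WT and from 2.24 to 9.53 (median 4.25) CPM in non-Tfh WT, a log2 difference of 4.64 ± 0.31 (SE). In GC B WT Cdk1 ran from 85.4 to 212 (median 137) CPM, and the 5 non-GC B WT libraries held 1.5, 3.47, 3.05, 2.53 and 1.42 CPM, a log2 difference of 5.96 ± 0.34. Neither pair overlapped. Ccnb1, the cyclin B1 partner of that kinase, ran from 262 to 398 (median 297) CPM in Tfh and from 6.14 to 28.8 (median 11.9) CPM in non-Tfh WT cells (4.48 ± 0.32). Its GC B libraries ran from 191 to 430.1 (median 313) CPM, above 4.23, 5.97, 8.64, 6.40 and 1.39 CPM in non-GC B cells (5.92 ± 0.42). Cyclin B2 (Ccnb2) and cyclin A2 (Ccna2) showed a wider gap in B than in T cells, at 7.33 ± 0.25 against 3.92 ± 0.32 and 7.36 ± 0.34 against 4.62 ± 0.41, a difference between lineages that was not tested. Ccnf, a cyclin that acts as a ubiquitin ligase adaptor, differed by 4.04 ± 0.31 in T and 4.48 ± 0.25 in B cells.

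Plk1, a kinase needed from mitotic entry to cytokinesis, had 1 of the 3 largest differences in T cells: from 181 to 283 (median 222) CPM in Tfh and from 3.43 to 15.6 (median 6.40) CPM in non-Tfh cells (4.83 ± 0.32 on the log2 scale). In B cells Plk1 ran from 139.9 to 326 (median 234) CPM in GC B and was at 0.420, 0.0328, 3.34, 3.15 and 0.462 CPM in the non-GC B WT libraries (7.32 ± 0.68). The non-GC B values differed widely near the detection floor, so the size of this difference is less certain than its direction. Aurka, the Aurora A kinase of the spindle poles, differed by 4.18 ± 0.16 in T and 4.54 ± 0.29 in B cells, and Melk, a kinase of the same phase, by 3.96 ± 0.28 and 5.17 ± 0.32. Foxm1, the transcription factor that drives many genes of G2 and M phase, ran from 57.9 to 86.3 (median 74.0) CPM in Tfh against 3.87 to 9.85 (median 5.21) CPM in non-Tfh cells (3.64 ± 0.22) and differed by 4.43 ± 0.30 in B cells. The 2 phosphatases that switch on Cdk1 parted: Cdc25c differed by 4.33 ± 0.36 in T and 6.15 ± 0.47 in B cells, while Cdc25b differed by only 1.75 ± 0.21 and 1.48 ± 0.14. Cdc25b was well expressed in the other populations too, from 43.1 to 134 (median 87.2) CPM in non-Tfh and 101, 96.1, 109.7, 76.5 and 94.1 CPM in non-GC B WT libraries, against 255 to 352 (median 309) CPM in Tfh and from 192 to 317 (median 246) CPM in GC B cells.

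**Figure D2:**
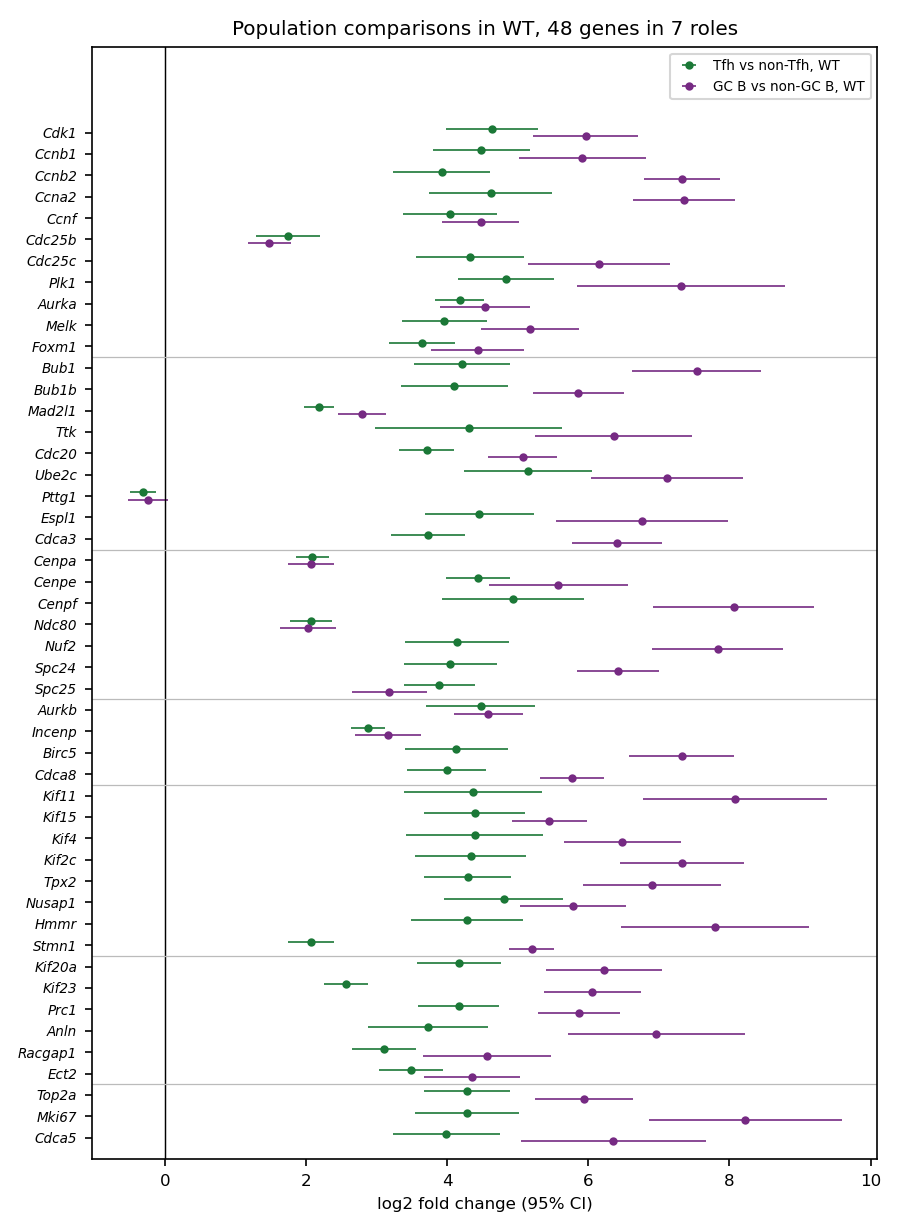
Log2 fold change with 95% confidence interval of each of the 48 genes in WT mice, Tfh against non-Tfh cells (green) and GC B against non-GC B cells (purple), with the 7 roles divided by gray lines from entry kinases and cyclins at the top to chromosome structure at the bottom. All genes but Pttg1 lie to the right of 0, with medians of 4.15 and 5.95, and Cdc25b is the lowest of these 47 in both.

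Of the 9 checkpoint and anaphase genes, 8 passed in both lineages. Bub1, a checkpoint kinase at the kinetochore, ran from 75.3 to 101 (median 81.0) CPM in Tfh and from 1.74 to 9.36 (median 3.58) CPM in non-Tfh WT cells (4.22 ± 0.32). In B cells Bub1 ran from 76.6 to 148 (median 110.4) CPM in GC B and stood at 0.959, 0.721, 0.735, 0.690 and 0 CPM in non-GC B libraries, 1 of them without a read (7.54 ± 0.42). Bub1b, the checkpoint protein BUBR1, differed by 4.10 ± 0.35 and 5.86 ± 0.30, and the checkpoint kinase Ttk by 4.31 ± 0.62 and 6.36 ± 0.51. Mad2l1, the protein that binds and holds back Cdc20, had a smaller gap: from 89.8 to 131 (median 103) CPM in Tfh against 22.2 to 26.7 (median 22.8) CPM in non-Tfh cells (2.19 ± 0.10), and 2.79 ± 0.16 in B cells. Its low level was even across libraries, with 23.4, 30.5, 22.5, 23.3 and 23.2 CPM in non-GC B WT.

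Cdc20, the activator of the anaphase promoting complex, ran from 191 to 297 (median 234) CPM in Tfh and from 14.1 to 28.6 (median 16.6) CPM in non-Tfh cells (3.71 ± 0.18). Cdc20 reached from 264 to 498 (median 400.4) CPM in GC B cells, against 11, 9.70, 16.9, 13.5 and 10.2 CPM in non-GC B cells (5.07 ± 0.23). Ube2c, the ubiquitin-conjugating enzyme of that complex, had the largest difference of all members in T cells, from 141 to 229 (median 178) CPM against 1.25 to 11.4 (median 3.66) CPM (5.14 ± 0.42). In B cells Ube2c ran from 77.2 to 223 (median 131) CPM against 0.240, 0.819, 2.15, 1.28 and 0.675 CPM (7.12 ± 0.49). Espl1, the separase that cuts cohesin, differed by 4.45 ± 0.36 and 6.76 ± 0.56, and Cdca3 by 3.73 ± 0.25 and 6.41 ± 0.29.

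Pttg1, which encodes securin, the inhibitor of separase that is destroyed at anaphase, did not follow its partners. It ran from 48.5 to 58.5 (median 53.5) CPM in Tfh and from 57.9 to 81.1 (median 64.8) CPM in non-Tfh WT cells, slightly lower in Tfh cells (-0.31 ± 0.09, adjusted p = 0.005 by edgeR) and under the 1.5-fold limit. In B cells it ran from 27.7 to 37.1 (median 33.9) CPM in GC B and stood at 41.6, 40.4, 29.3, 53.9 and 41.9 CPM in the non-GC B libraries (-0.24 ± 0.13, adjusted p = 0.13). Both pairs of groups overlapped. In KO mice the values were close to these, with -0.34 ± 0.08 in T cells (adjusted p = 0.0022) and -0.31 ± 0.09 in B cells (adjusted p = 0.012, edgeR). Per kilobase of annotated exon (GENCODE M21, an earlier release than the study's methods name, so lengths may differ from those used in counting), Pttg1 was the second most abundant member in non-Tfh WT (32.4 CPM per kb) and in non-GC B WT cells (20.8 CPM per kb).

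**Figure D3:**
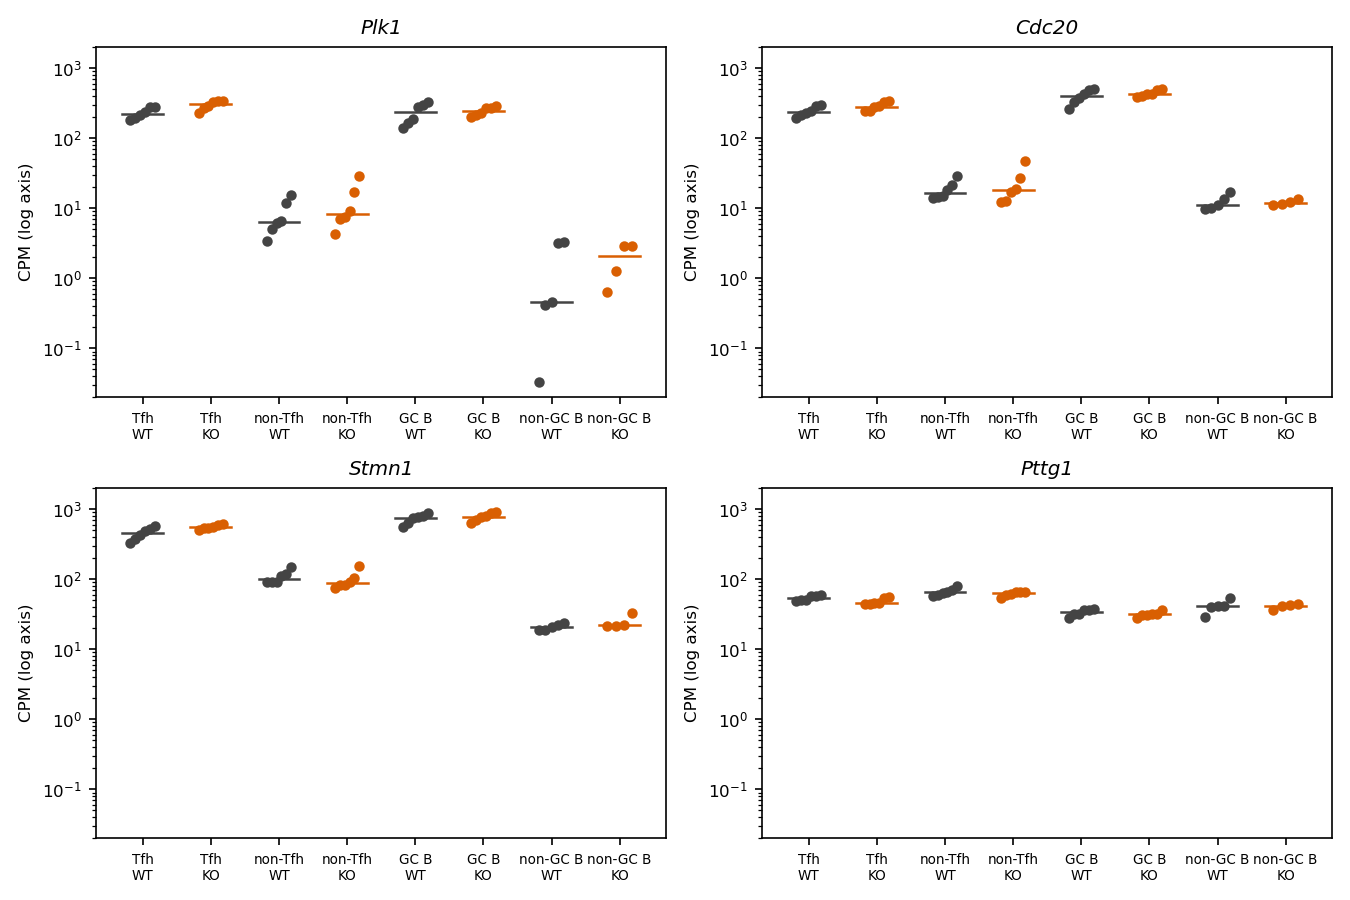
CPM of Plk1, Cdc20, Stmn1 and Pttg1 in each library of the 8 groups on a common log axis (points; bars, group medians; gray, WT; orange, KO). Plk1, Cdc20 and Stmn1 step down from Tfh to non-Tfh and from GC B to non-GC B cells, while Pttg1 medians stay between 31.6 and 64.8 CPM throughout.

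All 7 centromere and kinetochore genes passed in both lineages, with differences of unequal size. Cenpf, a large kinetochore protein, ran from 46.4 to 79.1 (median 65.1) CPM in Tfh against 0.159 to 5.13 (median 1.76) CPM in non-Tfh cells (4.93 ± 0.47), and from 33.0 to 102 (median 63.4) CPM in GC B against 0.240, 0.0983, 0.630, 0.296 and 0 CPM in non-GC B cells (8.06 ± 0.53). Cenpe, a kinesin that carries chromosomes to the spindle equator, differed by 4.43 ± 0.21 and 5.58 ± 0.45, Nuf2 by 4.14 ± 0.34 and 7.83 ± 0.43, Spc24 by 4.05 ± 0.31 and 6.42 ± 0.27, and Spc25 by 3.89 ± 0.23 and 3.18 ± 0.25. The last 3 and Ndc80 form the 4-part NDC80 complex that grips microtubules, yet Ndc80 itself differed by only 2.07 ± 0.14 and 2.03 ± 0.18. Ndc80 ran from 68.1 to 104 (median 76.6) CPM in Tfh and from 15.1 to 25.6 (median 20.2) CPM in non-Tfh cells, and from 57.5 to 106 (median 93.1) CPM in GC B and 22.6, 18.4, 27.8, 26.8 and 17.8 CPM in non-GC B cells, so it kept a level in non-GC B cells that Nuf2, at 0.899, 0, 0.499, 0.821 and 0.533 CPM in non-GC B libraries, did not. Cenpa, the centromeric histone H3 variant, did likewise, from 34.9 to 52.0 (median 43.6) CPM in non-Tfh against 159 to 214 (median 181) CPM in Tfh cells (2.09 ± 0.11; 2.07 ± 0.15 in B cells).

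The chromosomal passenger complex joins the kinase Aurora B (Aurkb) to its scaffold Incenp and to survivin (Birc5) and borealin (Cdca8), and corrects faulty attachments. Aurkb ran from 128 to 179 (median 143) CPM in Tfh and from 2.71 to 14.6 (median 4.88) CPM in non-Tfh cells (4.47 ± 0.36), and from 135 to 253 (median 200.4) CPM in GC B against 8.54, 11.4, 9.22, 6.24 and 7.93 CPM in non-GC B cells (4.58 ± 0.23). Birc5 differed by 4.13 ± 0.34 in T cells and by a wider margin in B cells, where the difference between lineages was not tested, from 133 to 239 (median 191) CPM against 0.869, 2.03, 1.55, 1.35 and 0.391 CPM (7.32 ± 0.34). Cdca8 differed by 3.99 ± 0.26 and 5.77 ± 0.21. Incenp had the smallest gap of the 4, 2.88 ± 0.11 and 3.16 ± 0.21, with from 21.1 to 33.8 (median 29.5) CPM remaining in non-Tfh cells.

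Spindle genes and kinesins all passed as well. Kif11, the motor that pushes spindle poles apart, ran from 180.2 to 309.5 (median 249) CPM in Tfh against 1.88 to 26.3 (median 8.34) CPM in non-Tfh cells (4.37 ± 0.46), and from 147 to 345 (median 238) CPM in GC B against 0.899, 0.131, 2.78, 0.164 and 0.569 CPM in non-GC B cells (8.08 ± 0.60), the second largest difference there. Tpx2, the activator of Aurora A on the spindle, differed by 4.29 ± 0.29 and 6.91 ± 0.45. Kif15, Kif4, Kif2c, Nusap1 and Hmmr, 3 motors and 2 microtubule-binding proteins, differed by between 4.28 (Hmmr) and 4.80 (Nusap1) in T cells and by between 5.45 (Kif15) and 7.80 (Hmmr) in B cells. Stmn1, a microtubule-destabilizing protein and per kilobase the most abundant member in Tfh and in GC B cells (239.6 CPM per kb in Tfh WT and 393 in GC B WT), had gaps of unequal size in the 2 lineages, a difference that was not tested. Stmn1 ran from 331 to 574 (median 461) CPM in Tfh and from 90.3 to 147 (median 101) CPM in non-Tfh cells (2.07 ± 0.15), but from 554 to 888 (median 756) CPM in GC B against 18.6, 18.9, 22.4, 23.8 and 21 CPM in non-GC B cells (5.20 ± 0.15).

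Cytokinesis genes, which build the midzone and the contractile ring, passed in 6 of 6 cases in both lineages. Kif20a, a midzone kinesin, differed by 4.17 ± 0.28 and 6.22 ± 0.38, and Prc1, the midzone bundling protein, by 4.16 ± 0.27 and 5.86 ± 0.27. Kif23 and Racgap1, the pair that forms centralspindlin, differed by 2.57 ± 0.15 and 3.10 ± 0.21 in T cells and by 6.06 ± 0.32 and 4.57 ± 0.42 in B cells. Anln, the ring scaffold anillin, differed by 3.73 ± 0.40 and 6.97 ± 0.58, and Ect2, the exchange factor that activates RhoA, by 3.49 ± 0.21 and 4.35 ± 0.31. For chromosome structure, Top2a, the topoisomerase that untangles sister chromatids, ran from 320.3 to 534 (median 416) CPM in Tfh against 11.9 to 39.3 (median 18.8) CPM in non-Tfh cells (4.28 ± 0.29), and from 264 to 624 (median 412) CPM in GC B against 3.78, 6.92, 9.85, 8.83 and 8.21 CPM in non-GC B cells (5.94 ± 0.32). Mki67, the coat protein of mitotic chromosomes and the usual marker of dividing cells, differed by 4.28 ± 0.35 in T cells and had the largest difference of all members in B cells, from 188 to 564 (median 308) CPM against 2.01, 0.295, 1.31, 2.36 and 0 CPM (8.22 ± 0.63). Cdca5 (sororin), which guards cohesion, differed by 3.99 ± 0.35 and 6.35 ± 0.61.

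Counts of the members were low in non-GC B cells, where 8 of the 48 had at least 1 WT library at 0 and 10 at least 1 KO library at 0, and differences measured against such levels carry wide errors. Other genes of the pathway were less uniform. Over 107 further mitosis genes in 7 lists, 67 were higher and 1 lower in Tfh cells and 82 higher and 1 lower in GC B cells, with medians of 1.57 and 1.87, against 22.8% and 24.8% of all tested genes higher. Condensin and cohesin regulators came closest to the members (8 higher and 1 lower of 11 in Tfh cells, median 3.77; all 11 higher in GC B cells, median 4.40), led by the acetyltransferase Esco2 at 4.35 and 8.58. The lower gene in Tfh cells was the condensin subunit Smc4. Subunits and regulators of the anaphase promoting complex had much smaller medians, 0.16 and 0.66, with 5 of 16 higher in Tfh and 8 of 16 in GC B cells, led in both by its inhibitor Fbxo5 (1.72 and 2.12). Of the 8 DREAM and MuvB genes, 2 were higher in Tfh cells and 3 higher and 1 lower in GC B cells, with medians of 0.20 and 0.35. The shares called higher in Tfh cells for these and for the anaphase promoting complex lie near that of all genes. Mybl2, the activator in MuvB, differed by 4.14 and 5.86, while Rbl2, a pocket protein of the DREAM complex, was lower in GC B cells by a log2 difference of -0.99. Inner kinetochore genes (11 and 13 of 15 higher), outer kinetochore and checkpoint genes (13 and 14 of 17), entry control genes (9 and 11 of 13) and spindle and centrosome genes (19 and 22 of 27) lay between, and the S phase genes, 19 of 20 higher in each, had medians of 1.80 and 2.99.

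The same comparisons within KO mice asked whether the populations differed there too. Of the 48 members 47 were higher in Tfh than in non-Tfh cells (largest adjusted p 1.2e-06 by edgeR, against 22.3% of 13390 genes; median 4.08) and 47 in GC B than in non-GC B cells (largest adjusted p 8.8e-05, against 25.3% of 13484 genes; median 6.33). Ube2c (5.00 ± 0.40), Nusap1 (4.67 ± 0.35) and Plk1 (4.62 ± 0.39) led in T cells, and Cenpa (2.45 ± 0.12) and Cdc25b (2.00 ± 0.14) had the smallest differences called. In B cells Cenpf led with 11.25 ± 0.44, followed by Espl1 (8.63 ± 0.62) and Mki67 (8.51 ± 0.72). The fitted Cenpf value rests on counts of 1, 0, 0 and 3 in the 4 non-GC B KO libraries and depends on the prior count. Its SE was derived from the test statistic and is not a reliable error at such counts. Ndc80 (1.81 ± 0.13) and Cdc25b (1.49 ± 0.14) were lowest of the genes called. The WT and KO comparisons share no samples.

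WT GC B cells were also set against WT Tfh cells. These groups differ in lineage and in day of sorting, which cannot be told apart. Of the 48 members 10 were higher in GC B cells, 1 lower and 37 not called, against 20.1% higher and 24.2% lower (44.3% in either direction) of 13719 genes, and the median difference was 0.31 (all genes -0.01). Kif23 differed most, from 118 to 206 (median 171) CPM in GC B against 71.9 to 108 (median 86.6) CPM in Tfh cells (0.91 ± 0.14, adjusted p = 4.1e-05 by edgeR), and was the member whose GC B libraries all lay above the Tfh libraries (21.2% of all genes). Cenpe (0.78 ± 0.19), Cdc20 (0.71 ± 0.16), Stmn1 (0.70 ± 0.14), Mki67 (0.67 ± 0.21), Cdca3 (0.65 ± 0.17), Cdc25c (0.63 ± 0.17), Mad2l1 (0.60 ± 0.14), Spc24 (0.59 ± 0.17) and Bub1b (0.59 ± 0.15) were the others called higher, with overlapping groups. Pttg1 was lower in GC B cells (-0.67 ± 0.08, adjusted p = 7.4e-06 by edgeR), with no overlap, and Cenpa, also without overlap, was lower by less than 1.5-fold (-0.47 ± 0.10, adjusted p = 8.7e-04 by edgeR). Of all tested genes, 47.9% did not overlap between these groups, in one direction or the other. Incenp (-0.00 ± 0.17), Kif11 (-0.01 ± 0.19) and Prc1 (0.01 ± 0.19) had the smallest differences, with 95% intervals of -0.36 to 0.36, -0.42 to 0.40 and -0.40 to 0.43. On the adjusted p alone 22 members passed (67.8% of all genes). Scaling by total counts left 6 calls, with the share of all genes in that fit not given here. The S phase genes, with 10 of 20 called higher, had a median of 0.59, and GC B WT libraries ranged more widely than Tfh WT libraries in the mitosis score (6.59 to 7.60).

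The central question of the design was the effect of S1PR4. In Tfh cells no member differed by more than 1.5-fold at an adjusted p below 0.05 (0 of 48, against 0.496% of 13495 genes). Members nevertheless leaned to one side: 46 of the 48 had a log2 fold change above 0 in KO relative to WT cells, the median was 0.31, or 1.24-fold, beside -0.00 for all tested genes, and 39 had an unadjusted p below 0.05 by edgeR, against 19.2% of all genes (9.67% higher). On the adjusted p alone 3 members passed, against 1.41% of all genes. Bub1 ran from 75.3 to 101 (median 81.0) CPM in WT and from 92.9 to 129.8 (median 117) CPM in KO cells (0.43 ± 0.10, adjusted p = 0.048 by edgeR). Bub1b ran from 164 to 233 (median 185) CPM and from 215 to 295 (median 259) CPM (0.40 ± 0.09, adjusted p = 0.0499 by edgeR), and Nuf2 from 81.8 to 113 (median 89.4) CPM and from 109 to 146 (median 125) CPM (0.40 ± 0.09, adjusted p = 0.0499 by edgeR). WT and KO libraries overlapped for these 3 genes and for each of the other 45, while 1.87% of all genes did not overlap.

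The lean ran through every role. It held for 8 of 8 spindle genes and kinesins, all 8 with an unadjusted p below 0.05, among them Kif4 (0.40 ± 0.10) and Kif11 (0.37 ± 0.11), and for 6 of 6 cytokinesis genes, among them Kif20a (0.38 ± 0.10) and Prc1 (0.38 ± 0.11). Entry kinases and cyclins were above 0 in 10 of 11 cases, with Plk1 running from 181 to 283 (median 222) CPM in WT and from 229.6 to 344 (median 304) CPM in KO (0.36 ± 0.12) and Cdk1 from 109 to 157 (median 127) CPM and from 136 to 203 (median 156) CPM (0.31 ± 0.11). Cdk1 is the 1 member on chromosome 10, where S1pr4 also lies. Aurkb (0.32 ± 0.11), Top2a (0.29 ± 0.12), Cenpe (0.34 ± 0.12) and Tpx2 (0.33 ± 0.11) were near the median, and Mki67 (0.13 ± 0.09), Cenpa (0.11 ± 0.08) and Cenpf (0.16 ± 0.14) below it. The exceptions were Cdc25b (-0.19 ± 0.12, 95% interval -0.44 to 0.06) and Pttg1 (-0.16 ± 0.08, -0.33 to 0.01), the 2 members with the smallest differences between Tfh and non-Tfh cells. The genes are read from the same 12 libraries and are not independent, so the count of genes on one side is no count of replicates.

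**Figure D4:**
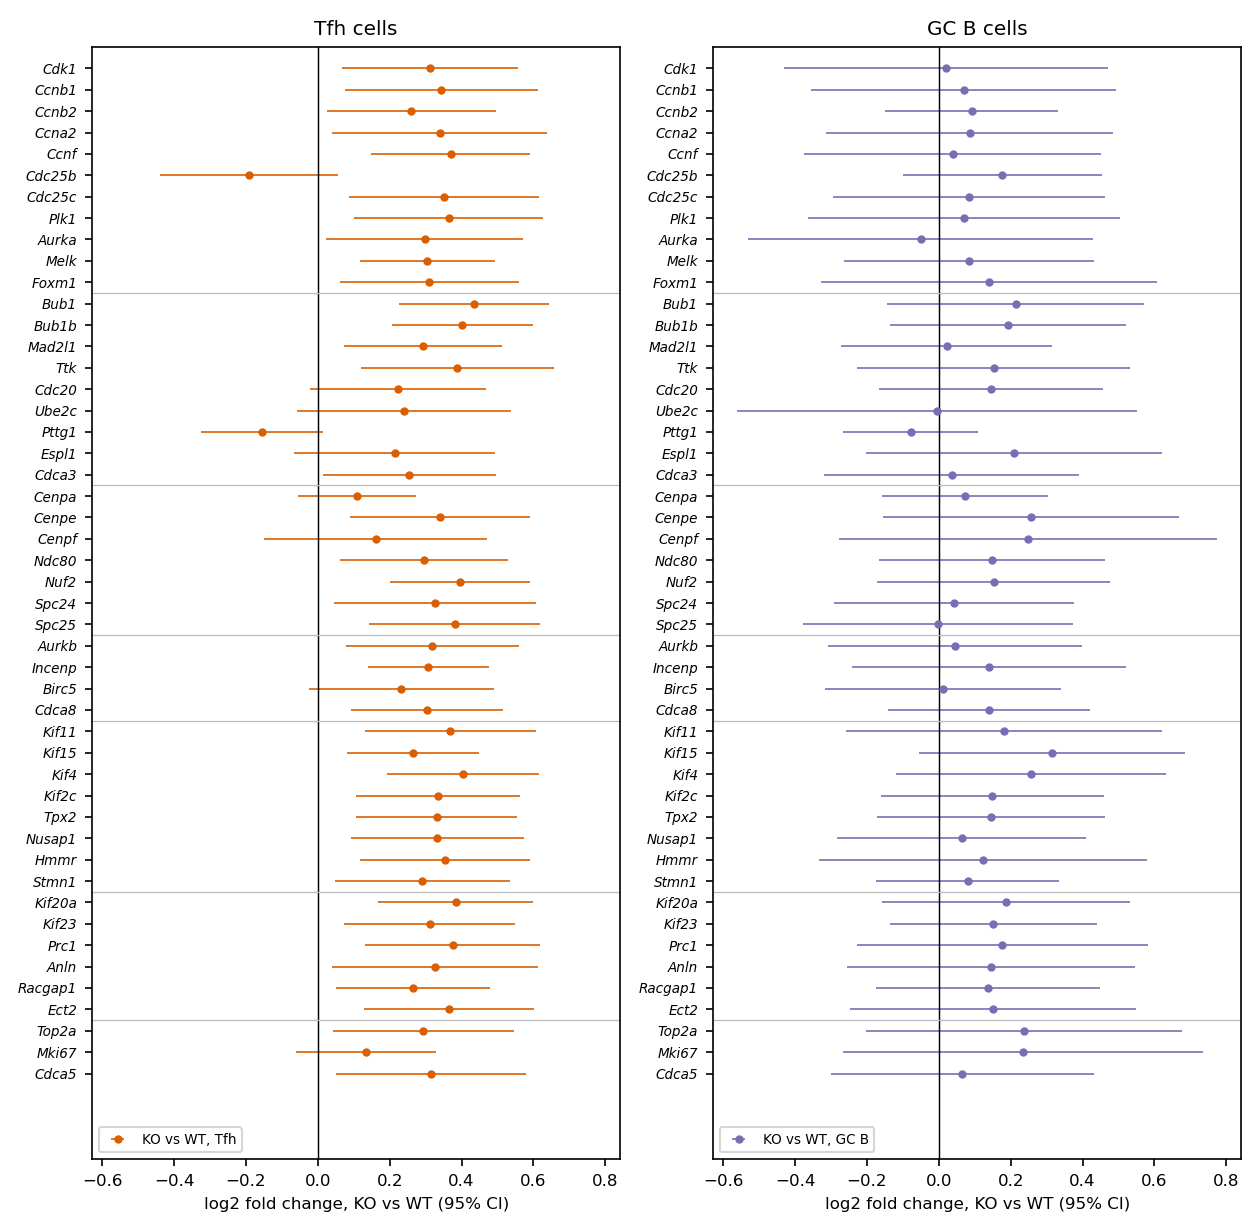
Log2 fold change of KO against WT cells with 95% confidence interval for each of the 48 genes in Tfh (left) and GC B cells (right), in the same order of roles. In Tfh cells 46 genes lie above 0 with a median of 0.31, in GC B cells 44 with a median of 0.14 and intervals that all include 0.

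The 20 S phase genes leaned the same way in Tfh KO cells, with 20 of 20 above 0, all 20 at an unadjusted p below 0.05 and a median of 0.36, so the lean was not shown to be particular to mitosis. Of the 107 further mitosis genes 98 were above 0, 71 had an unadjusted p below 0.05 and 6 passed on the adjusted p, with a median of 0.27. Cenpn (0.51), an inner kinetochore subunit, Ska1 (0.49), an outer kinetochore protein, and Stil (0.46), a centriole assembly protein, had the largest values of their lists. The anaphase promoting complex had the lowest median of the 7 lists, with 12 of 16 above 0 and a median of 0.13.

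Sex, B cell RNA and replicate number moved with genotype or with the mitosis score in the Tfh libraries, and their part in the result was followed by adding each to the fit. Sex was inferred from the RNA, a library being taken as female where Xist counts exceeded Ddx3y counts. By this rule, 5 of the 6 WT but 2 of the 6 KO Tfh libraries were female. With sex as a covariate the median was 0.46, 38 members passed on the adjusted p (5.08% of all genes) and still none passed the 1.5-fold limit as well. Among females alone, 2 KO against 5 WT libraries, 46 members were above 0 with a median of 0.46, 45 had an unadjusted p below 0.05 (17.4% of all genes) and 0 passed the adjusted p by edgeR. Both female KO libraries have numbers between 4 and 6, so sex and replicate number are partly confounded. Males, with 1 WT library, gave no separate value.

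The 12 B cell markers summed to a median of 370 CPM in Tfh WT and 268 CPM in Tfh KO, and 11 of the 12 had a log2 fold change below 0, with a median over the markers of -2.12, 7 at an unadjusted p below 0.05 and 1 called lower. The sum is set mainly by the most abundant markers, so it understates the difference that the median over the markers shows. In non-Tfh KO libraries, where 4 of the 12 averaged over 1 CPM, the sum still ran from 65.0 to 92.4 CPM. Plasma cell markers summed to between 433 and 870 CPM in Tfh WT and between 395 and 451 CPM in Tfh KO, with 7 of 8 below 0, a median of -0.84 and 3 called lower, Mzb1 having the lowest value (-4.35), and their part in the result was not tested. GC B markers, led by the T-cell-shared Bcl6 and Fas, ran from 305 to 384 CPM and from 272 to 420 CPM, with Rgs13 at 0 in every KO library. The B cell marker score used as a covariate was the mean log2 CPM of the B cell markers, not their sum. With this score as a covariate 43 members stayed above 0, the median dropped to 0.11, 3 had an unadjusted p below 0.05 (11% of all genes) and 0 passed the adjusted p. With sex and that score together 47 were above 0, with a median of 0.27, 29 at an unadjusted p below 0.05 (11.6% of all genes) and 0 at the adjusted p.

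Libraries numbered 1 to 3 and 4 to 6 stood apart in the Tfh WT group, with 464 to 536 and 199.9 to 277 CPM of B cell markers. The mitosis score of numbers 1 to 3 lay between 6.75 and 6.89 in WT and between 7.05 and 7.33 in KO, and that of numbers 4 to 6 between 6.94 and 7.22 in WT and between 7.24 and 7.48 in KO, so that within each set of 3 the KO libraries all lay above the WT libraries. The median log2 fold change of the members was 0.35 within numbers 1 to 3 and 0.29 within numbers 4 to 6, with 33 and 25 members at an unadjusted p below 0.05 (9.17% and 12% of all genes) and 0 at the adjusted p in either. As a factor in the model, this split left 20 members past the adjusted p (3.91% of all genes) and a median of 0.32. The labels do not say what the numbers stand for, and this split was chosen after the data were seen.

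**Figure D5:**
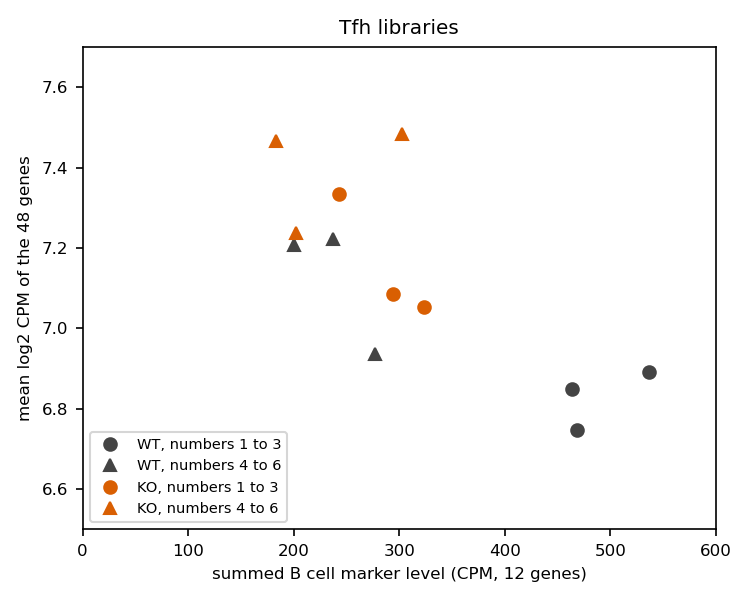
Mean log2 CPM of the 48 genes against the summed CPM of 12 B cell markers in the 12 Tfh libraries (gray, WT; orange, KO; circles, replicate numbers 1 to 3; triangles, 4 to 6). The 3 WT libraries above 460 CPM of B cell markers have the 3 lowest scores, and KO libraries between 183 and 323 CPM score 7.05 or more. The sum differs from the B cell marker score used as a covariate, which was a mean log2 CPM.

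How many members passed on the adjusted p also depended on single libraries. Leaving out WT replicate 1, 2, 3 or 5 or KO replicate 1, 4, 5 or 6 left 0, leaving out WT replicate 4 or KO replicate 2 gave 6, and leaving out WT replicate 6 or KO replicate 3 gave 7. The share of all genes passing in these fits is not given here, so the counts cannot be read as a change of the members alone. The median stayed between 0.26 and 0.37 and 46 members stayed above 0 in all 12 of these fits. With all 8 groups in one fit 0 members passed and 4 had an unadjusted p below 0.05 (12.5% of all genes), while DESeq2 passed 19 (7.59% of all genes).

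In non-Tfh cells 0 of 48 members were called (0.114% of 13197 genes), 1 had an unadjusted p below 0.05 (11.3% of all genes) and 41 were above 0, with a median of 0.35. That 1 was Incenp, from 21.1 to 33.8 (median 29.5) CPM in WT and from 30.9 to 44.8 (median 32.7) CPM in KO (0.31 ± 0.12, adjusted p = 0.34 by edgeR). Melk (0.82 ± 0.40), Ccna2 (0.66 ± 0.48) and Cenpf (0.66 ± 0.54) had the largest values and Prc1 (0.07 ± 0.36), Mad2l1 (-0.09 ± 0.11) and Kif23 (-0.10 ± 0.14) the smallest, and Cdc25b was at -0.42 ± 0.21. The spread within groups was wide and ran with Tfh markers: the KO library with the highest mitosis score (replicate 1, 4.41) held 486 CPM of Tfh markers against 209 to 367 CPM in the other KO libraries, and the 2 WT libraries with the highest scores (3.99 and 3.62) held 331 and 353 CPM against 226 to 262 CPM. B cell markers summed to between 72.9 and 109 CPM in WT and between 65.0 and 92.4 CPM in KO, with 7 of the 8 tested below 0, a median of -1.52, 5 at an unadjusted p below 0.05 and 0 called. Of 8 plasma cell markers 5 were below 0, with a median of -0.06, and 1 was called lower, Mzb1 (-3.77). The part of these markers in the result was not tested. Within numbers 1 to 3, 41 members were above 0 with a median of 0.37, and within numbers 4 to 6, 33 with a median of 0.24. Among females the lean turned, with 2 of 48 members above 0 and a median of -0.47 (2 KO against 5 WT libraries), and both of these KO libraries have replicate numbers 4 to 6, so sex and number cannot be told apart there and no direction can be given.

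In GC B cells 0 of 48 members were called (0.0612% of 13070 genes) and 0 had an unadjusted p below 0.05 by edgeR (4.13% of all genes), with 44 above 0 and a median of 0.14. Limma and DESeq2 also called 0. Kif15 ran from 52.6 to 115 (median 75.2) CPM in WT and from 84.4 to 132 (median 99.2) CPM in KO, the largest value (0.31 ± 0.17, 95% interval -0.05 to 0.68), followed by Cenpe (0.26 ± 0.19) and Kif4 (0.26 ± 0.17), while Spc25 (-0.00 ± 0.17), Ube2c (-0.00 ± 0.26) and Birc5 (0.01 ± 0.15) were nearest 0. Cdc25b, below 0 in both T cell populations, was at 0.18 ± 0.13. The 95% intervals of the members reach from -0.56 to 0.78, with a median half-width of 0.37. For most members an estimate of the median size seen in Tfh cells would thus not have excluded 0. Some members had narrower intervals, such as Ccnb2 (-0.15 to 0.33) and Stmn1 (-0.17 to 0.33). The replicate numbers divided this comparison: among numbers 1 to 3, 7 of 48 members were above 0 (median -0.12, scores of 7.38 to 7.60 in WT and 7.18 to 7.55 in KO), and among numbers 4 to 6, 47 of 48 (median 0.43, scores of 6.59 to 7.09 in WT and 7.15 to 7.51 in KO), 38 members having an unadjusted p below 0.05 (18.1% of all genes) and 0 passing the adjusted p. GC B libraries numbered 4 to 6 also held more B cell marker RNA, 10410 to 12823 CPM against 8189 to 9537 CPM, in both genotypes. Plasma cell markers parted the genotypes within numbers 4 to 6, at 4789 to 5290 CPM in WT and 2770 to 3180 CPM in KO. Within numbers 1 to 3 they overlapped, at 5878 to 9865 CPM in WT and 6610 to 19069 CPM in KO. Their part in the result was not tested. Without the KO library rich in plasma cell RNA the call count stayed at 0.

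In non-GC B cells Cenpf failed the filter on low counts, with 4 counts in all KO libraries together. Of the 47 members tested, 0 were called (0.0537% of 13038 genes), 21 were above and 26 below 0, the median was -0.01 and 1 had an unadjusted p below 0.05 (4.55% of all genes). That was Ndc80, 22.6, 18.4, 27.8, 26.8 and 17.8 CPM in WT and 33.1, 28.3, 31.3 and 24.7 CPM in KO libraries (0.38 ± 0.16, adjusted p = 0.98 by edgeR), with overlapping groups. Espl1 (-1.68 ± 1.2), Melk (-1.15 ± 0.82) and Nuf2 (1.14 ± 0.79) had the largest values at levels of a few CPM or less, and Pttg1 (-0.00 ± 0.15), Cenpa (0.00 ± 0.16) and Cdca8 (-0.00 ± 0.23) the smallest. Bub1b was at 0.62 ± 0.30 and Incenp at -0.26 ± 0.14.

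Whether the genotype effect differed between populations was tested as an interaction. Between Tfh and non-Tfh cells 0 of 48 members passed the adjusted p (0.0139% of 14401 genes), 18 were above and 30 below 0, and 3 had an unadjusted p below 0.05 (9.2% of all genes), Ndc80 (0.53 ± 0.20), Mad2l1 (0.38 ± 0.16) and Kif23 (0.41 ± 0.19). For these 3, KO against WT was at 0.30, 0.29 and 0.31 in Tfh cells and at -0.24, -0.09 and -0.10 in non-Tfh cells. Cenpf (-0.50 ± 0.54) and Melk (-0.52 ± 0.43) had the largest interaction values below 0. Incenp (-0.00 ± 0.15), Racgap1 (0.01 ± 0.32) and Aurkb (-0.01 ± 0.53) were nearest 0. In B cells 0 of 48 passed (0% of 14490 genes, with 4.58% at an unadjusted p below 0.05), 33 were above 0, and the 3 with an unadjusted p below 0.05, Cenpf (3.19 ± 1.04), Espl1 (1.87 ± 0.84) and Melk (1.24 ± 0.55), were at or near the floor in non-GC B cells. Kif23 (0.00 ± 0.41), Cdc25b (0.01 ± 0.20) and Kif20a (0.02 ± 0.64) were nearest 0. The lean of the mitosis genes in Tfh KO cells was therefore not shown to differ from that in non-Tfh cells. The interaction was not fitted with same-numbered samples paired within a genotype.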

How the data were processed

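RNA from the 45 sorted samples was captured with oligo-dT and sequenced paired-end with a stranded kit. Per the study's methods, adapters were removed by the authors (Cutadapt 2.10), STAR 2.5.3 mapped the reads on mm10 and RSEM 1.3.0 quantified genes. The deposited values are RSEM expected counts, which share out reads that match several genes, so values of near-identical copies are estimates. They were rounded to whole numbers. Each pair of groups was fitted alone with edgeR 4.0.16 (R 4.3.3; quasi-likelihood test, TMM scaling, filterByExpr, Benjamini-Hochberg adjustment over all tested genes), and a gene was called at an adjusted p below 0.05 and a fold above 1.5; interactions used 4 groups and the adjusted p alone. The authors used DESeq2, tried here as an alternative (1.42.0), as was limma (3.58.1). CPM used TMM over all samples, and scores a prior count of 2. Scripts were tested on simulated data. Depth limits precision for members near 0 in non-GC B cells. Named genes were a fixed set of 25 over the roles plus, per comparison, the 3 largest, 3 smallest and 3 lowest p. The members and lists were chosen with earlier results of these data known.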

Additional observations from a re-analysis of the deposited data

Results flagged for a closer look

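Over 224 sets of libraries of 1 group, 5 single libraries stood farther from the rest of their group than Dixon's 95% limit, and chance alone flags about 1 in 20 sets. In Tfh KO replicate 2 the mitosis score lay 0.48 log2 units under the S phase score (-0.480, against -0.380 to -0.336 in the other 5). Stmn1 was at 155 CPM in non-Tfh KO replicate 1, against 75.6 to 104 CPM, and this is the library with the highest mitosis score and Tfh marker level of its group. Stmn1 was at 32.7 CPM in non-GC B KO replicate 1, against 21.2 to 22.3 CPM. Bub1 was at 0 CPM in non-GC B WT replicate 5, against 0.690 to 0.959 CPM, and Kif11 at 2.78 CPM in non-GC B WT replicate 3, against 0.131 to 0.899 CPM.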

How the results depend on the processing

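The count of 47 higher members in each of the 4 population comparisons (46 with DESeq2 in GC B against non-GC B KO) and the 0 calls in each genotype comparison and interaction stayed within 1.5-fold under RLE size factors, total counts, no filter on low counts, DESeq2, limma and all 8 groups in one fit, and the genotype comparisons also with sex as a covariate. They stayed in every fit without 1 library, made for the population and genotype comparisons, and in 6 fits of the B cell interaction without 1 replicate number in every group that holds it. There were exceptions. Tfh KO against WT went from 0 (0.496% of all genes) to 3 (1.41%) on the adjusted p alone. GC B against Tfh went from 11 (44.3% of all genes) to 22 (67.8%) on the adjusted p alone. With total counts it gave 6 and with all 8 groups in one fit 7. The share of all genes called in those fits is not given here, so the counts cannot be read as a change of the members alone.

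Same-numbered samples did not all deviate together (mean correlation of 0.10 and 0.11 in T cells and 0.060 and -0.015 in B cells, WT and KO, with 2 of 6, 3 of 6, 1 of 5 and 0 of 4 pairs above 0.1), so the numbers were not taken to pair the samples. In T cells 4 of 6 WT and 6 of 6 KO samples correlated best with their own number, and in B cells 4 of 5 WT and 0 of 4 KO samples. Sex inferred from the RNA also matched in every same-numbered pair of T cell samples. In B cells the inferred sex differed in replicate 5 of WT, male in GC B and female in non-GC B cells, and in replicates 1, 3 and 4 of KO. For T cells, and for WT B cells other than replicate 5, these are hints of pairing from the data and not from the design. Blocking on the replicate number gave 47 calls in each population comparison, 0 in each genotype comparison and interaction and 8 in GC B against Tfh. In Tfh KO against WT 4 members passed the adjusted p alone, against 3 without the block. The share of all genes passing in the blocked fits is not given here. The block used the number alone, so same-numbered WT and KO samples shared a level although they come from different mice. Pairing of populations within a genotype was not tested in the interactions.

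Values near 0 turned sign, none of them called. In GC B against Tfh, Plk1, Birc5, Prc1 and Top2a were at -0.045, -0.047, -0.051 and -0.027 with total counts, -0.033, -0.0042, -0.031 and -0.0054 with limma and -0.031, -0.0024, -0.027 and -0.0013 with the block. Kif11 and Incenp were at 0.0079 and 0.015 with RLE and 0.0034 and 0.011 with DESeq2. In Tfh KO against WT, Birc5 was at -0.031 with the B cell marker score and Cdc25b at 0.12 with that score and sex. In non-Tfh cells Prc1 was at -0.21 with sex. In GC B KO against WT, Birc5 was at -0.0050 with total counts, and Ube2c and Spc25 at 0.0063 and 0.0092 with no filter, 0.077 and 0.044 with limma, 0.076 and 0.044 with the block, 0.0019 and 0.0040 in the fit of 8 groups and 0.081 and 0.043 with the split of replicate numbers. In non-GC B cells Cenpa was at -0.00022 with RLE, -0.0045 with total counts and -5.76e-05 in the fit of 8 groups, Cdca8 at 0.0022 with limma, 0.057 with the block and 0.011 with sex, and Pttg1 at 0.035 with limma and 0.033 with the block. In the T cell interaction Aurkb was at 0.0059 with RLE, 0.011 with DESeq2, 0.041 with limma and 0.0013 in the fit of 8 groups, and Incenp at 0.013, 0.013 and 0.0076 with RLE, DESeq2 and the fit of 8 groups. In the B cell interaction Kif20a, Cdc25b and Kif23 were at -0.0078, -0.0018 and -0.023 with total counts, Cdc25b and Kif23 at -1.70e-05 and -0.0018 with no filter and Kif23 at -0.0024 with DESeq2.

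Leaving out 1 library moved KO against WT in GC B cells from -0.071 to 0.097 (Birc5), -0.093 to 0.10 (Spc25) and -0.13 to 0.19 (Ube2c), in non-GC B cells from -0.10 to 0.11 (Cdca8), -0.079 to 0.14 (Cenpa) and -0.11 to 0.11 (Pttg1), in non-Tfh cells from -0.31 to 0.32 (Prc1). Leaving out 1 replicate number moved the B cell interaction from -0.098 to 0.23 (Cdc25b), -0.40 to 0.28 (Kif20a) and -0.30 to 0.59 (Kif23). The causes were not tested. The split of replicate numbers and the joint fit of sex and B cell score were added after the data were seen.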
